A study of Mus musculus with 21 samples.

Results

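The 4 mature miRNAs of the Mir204 and Mir211 hairpins were followed through development of the mouse cochlea, with the SOC as the second organ. They are mmu-miR-204-5p, mmu-miR-204-3p, mmu-miR-211-5p and mmu-miR-211-3p (the prefix for mouse is left out from here on), taken by name as 4 of the 1647 miRNAs in the count table. All mice were wild type and untreated. The cochlear libraries came from the sensory epithelium (SE) of C57BL/6JOlaHsd mice of both sexes at embryonic day 16 (E16, 2 libraries), the day of birth (P0, 4 libraries) and postnatal day 16 (P16, 4 libraries). The SOC is the superior olivary complex, a group of auditory nuclei in the brainstem, and its libraries came from C57Bl6/J mice of both sexes at E16 (4 libraries), P0 (4 libraries) and P16 (3 libraries). Tissue was pooled from several animals per sample, so the spread between libraries is not the spread between single animals. SE RNA was purified with a Direct-zol kit and made into libraries with the SMARTer smRNA kit, whereas SOC RNA went through the innuPREP miRNA kit and the TruSeq Small RNA kit, so that organ and kit cannot be told apart.

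A miRNA hairpin is cut into a duplex of a 5p and a 3p arm, and the arm kept by Argonaute guides it to mRNAs that pair with the seed at its 5′ end. miR-204 and miR-211 are paralogs. They lie in introns of Trpm3 and Trpm1, which encode cation channels of the same family, and are known for pigment cells (Trpm1 and miR-211 are driven by MITF in melanocytes) and for secretory epithelia such as the retinal pigment epithelium and the choroid plexus. In the cochlea, pigment cells (the intermediate cells) sit in the stria vascularis, outside the SE.

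The 2 hairpins are printed from RefSeq (GRCm38.p6), with both mature arms in capitals, because they show how alike the 5p arms are and how unlike the rest is. Mir204 lies at chr19:22750605-22750672 on the plus strand and Mir211 at chr7:64205806-64205911 on the plus strand.
Mir204: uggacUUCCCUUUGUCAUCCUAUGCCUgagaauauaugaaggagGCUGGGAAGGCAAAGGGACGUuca
Mir211: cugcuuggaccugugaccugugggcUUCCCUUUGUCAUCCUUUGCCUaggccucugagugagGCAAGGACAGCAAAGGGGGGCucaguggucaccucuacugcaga

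The mature arms follow with the seed (bases 2 to 8) in capitals, together with miR-7670-3p, the only other listed miRNA found with the seed of the 5p arms.
mmu-miR-204-5p: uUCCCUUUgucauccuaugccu
mmu-miR-211-5p: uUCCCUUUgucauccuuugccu
mmu-miR-7670-3p: uUCCCUUUcugaauaucuguaga
mmu-miR-204-3p: gCUGGGAAggcaaagggacgu
mmu-miR-211-3p: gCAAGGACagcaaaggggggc

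The 5p arms shared 21 of 22 bases and differed by A17U, counted from 1 at the 5′ end with the base of miR-204-5p first. The seed was therefore the same in both, and 3 of the 1415 listed miRNAs with a RefSeq sequence held it. The third, miR-7670-3p (chr6:38507371-38507393), had 0 counts in every cochlear library and 0 to 3 counts in the SOC libraries. The 3p arms shared 14 of 21 bases, and of their 7 differences U3A, G4A and A8C fell in the seed, so that miR-204-3p and miR-211-3p had different seeds. Since the rule by which the authors' counting split reads that differ by 1 base is not given in the sources used here, the counts of the 5p arms are uncertain against each other.

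In the GENCODE M21 annotation of GRCm38, Mir204 lay in intron 6 of the first Trpm3 transcript in the GENCODE numbering, which has 27 exons, 17433 bases after the upstream exon and 15961 bases before the downstream one. It was intronic in all 18 Trpm3 transcripts that span it. Mir211 lay in intron 6 of the first Trpm1 transcript, also of 27 exons, 1212 bases after the upstream exon, and was intronic in all 12 Trpm1 transcripts that span it. Both hairpins were on the strand of their host gene, and neither overlapped an exon of it.

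Depth set the limits on what could be seen. Cochlear libraries held 124400 to 447419 counts (median 196885) and SOC libraries 8309669 to 18053698 (median 11706138). In the SOC, 3 kinds of library (sets) were present, and each spanned more than 1 time point. Set A (E16 replicates 2 and 3, P0 replicates 2 and 3) had over 10% of counts on miR-99b-5p, set C (P0 replicate 4, P16 replicates 2 and 3) had under 1% on miR-191-5p, and set B held the rest (E16 replicates 1 and 4, P0 replicate 1, P16 replicate 1). In the cochlea, P16 replicate 2 stood apart, with a TMM factor of 0.648 against 0.983 to 1.08 in the other P16 libraries and with let-7a-5p at 2006 CPM against 10370 to 18891.

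In the cochlea, miR-204-3p rose between E16 and P0, whereas P0 and P16 differed by less than the spread between libraries. Its TMM-normalized CPM were 215 and 260 at E16, 941, 920, 1271 and 947 at P0, and 1066, 1338, 1049 and 1078 at P16. Every P0 and P16 library lay above both E16 libraries, whereas P0 and P16 overlapped. The group means were 238 ± 32.1 (SD, n = 2), 1020 ± 168 (SD, n = 4) and 1133 ± 138 (SD, n = 4). These values rested on 79 and 150 counts at E16, 171 to 198 at P0 and 145 to 209 at P16. Among all miRNAs of its library, miR-204-3p ranked 174 to 180 at E16, 62 to 70 at P0 and 53 to 70 at P16. In bulk tissue, more cells of a type and more RNA per cell cannot be told apart.

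**Figure D1:**
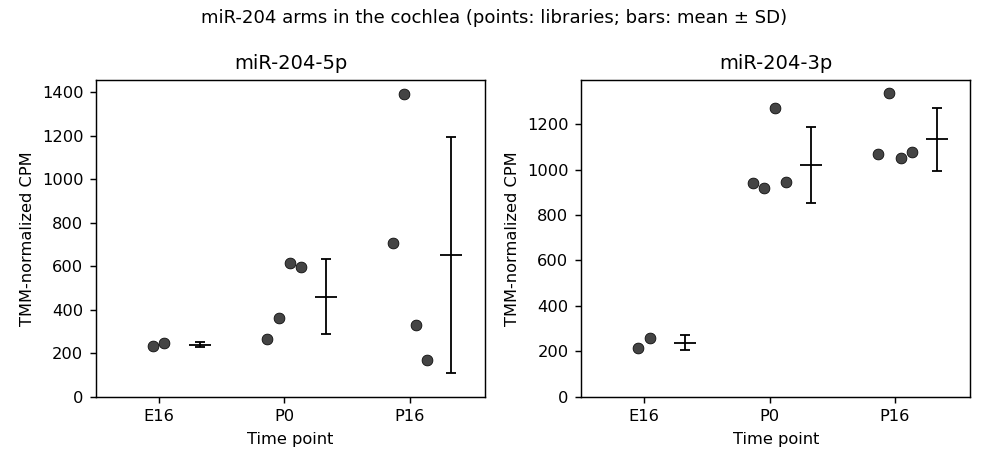
TMM-normalized CPM of miR-204-5p (left) and miR-204-3p (right) in the cochlea at E16, P0 and P16. Each point is a library and each bar the mean ± SD. The E16 libraries of miR-204-3p (215 and 260) lie below all P0 and P16 libraries (920 to 1338), whereas miR-204-5p runs from 171 to 1393 at P16.

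miR-204-3p was DE at P0 vs E16 and at P16 vs E16. Here DE means a fold change above 1.5 with FDR under 0.05 and groups whose libraries do not overlap. At P0 its log2 fold change was 2.10 (SE 0.466, 95% interval 1.18 to 3.01, FDR = 9.19e-05 by Benjamini-Hochberg, edgeR's quasi-likelihood test). At P16 vs E16 it was 2.25 (SE 0.470, interval 1.33 to 3.17, FDR = 1.75e-05, edgeR). For P16 vs P0 it was 0.15 (interval −0.52 to 0.82, FDR = 0.834, edgeR), so a change in this step was not resolved, and 10.5% of all miRNAs tested were DE. Of the 896 miRNAs tested in the cochlea, 24.4% were DE at P0 vs E16 (7.81% higher at P0) and 29.6% at P16 vs E16 (10.9% higher at P16). Groups did not overlap for 48.2% and 46.2% of them. The 896 include miRNAs on few counts. The filter asked for over 1 CPM in 2 libraries of a time point, and 1 count was 2.24 to 8.04 CPM in the cochlea. With library totals in place of TMM, the median log2 fold change of all tested miRNAs moved from 0 to −0.38 at P0 vs E16 and from −0.09 to −0.58 at P16 vs E16. On this scale miR-204-3p was still DE, at 1.63 (FDR = 0.00385, edgeR) and 1.74 (FDR = 0.00151, edgeR). In exact two-sided permutation tests of miR-204-3p alone, both comparisons with E16 gave p = 0.0667, the smallest that 2 against 4 libraries allow.

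miR-204-5p, the arm that carries the seed shared with miR-211, had a lower and more scattered postnatal level. Its TMM-normalized CPM were 231 and 248 at E16, 267, 360, 616 and 598 at P0, and 709, 1393, 332 and 171 at P16. All P0 libraries were above both E16 libraries, by little in replicate 1, and the P16 libraries fell on both sides of the E16 values. The means were 239.9 ± 11.9 (SD, n = 2), 461 ± 174 (SD, n = 4) and 651 ± 543 (SD, n = 4). Counts were 85 and 143 at E16, 50 to 108 at P0 and 23 to 179 at P16.

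miR-204-5p was not DE in any cochlear comparison. For P0 vs E16 its log2 fold change stood at 0.94 (SE 0.457, interval 0.04 to 1.83, FDR = 0.112, edgeR). The libraries of these 2 groups did not overlap, as for 48.2% of all miRNAs tested. At P16 vs E16 the log2 fold change was 1.44 (SE 0.467, interval 0.52 to 2.35, FDR = 0.00892, edgeR), but the groups overlapped through P16 replicate 4 (171), so the call was not made. Without that library it was 1.67 (FDR = 0.00255, edgeR) and DE, and without P16 replicate 2 it was 0.84 (FDR = 0.143, edgeR). For P16 vs P0 the log2 fold change was 0.50 (interval −0.21 to 1.21, FDR = 0.369, edgeR), and without P16 replicate 2 it was −0.07. With library totals in place of TMM, miR-204-5p had log2 fold changes of 0.45 (FDR = 0.516, edgeR) at P0 vs E16 and 0.77 (FDR = 0.206, edgeR) at P16 vs E16.

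In the cochlea at P16, the spread of the 2 arms lay at opposite ends of that of miRNAs averaging 100 CPM or more. The CV of miR-204-5p was 83.5% over the 4 libraries, and 11 of 219 miRNAs averaging 100 CPM or more (5.02%) were at least as variable. The CV of miR-204-3p was 12.1%, and 214 of these 219 miRNAs (97.7%) were at least as variable. The median CV was 42.6%. By library totals miR-204-5p was at 533 ± 326 CPM at P16 (SD, n = 4), a narrower spread. The order of the arms differed between groups. miR-204-5p was also the more variable arm in the cochlea at P0 and the SOC at E16. miR-204-3p was the more variable in the cochlea at E16 and in the SOC at P16 and P0 (CV 119% against 23.9% at P0).

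The share of the 5p arm among the counts on both miR-204 arms does not depend on the scaling of a library. In the cochlea it was 51.8% and 48.8% at E16, 22.1%, 28.1%, 32.7% and 38.7% at P0, and 39.9%, 51.0%, 24.0% and 13.7% at P16. The arms were thus near balance at E16, the 3p arm was ahead in every P0 library, and P16 libraries ranged from balance to a large excess of 3p. The log2 ratio of 5p to 3p changed by −1.23 at P0 vs E16 (exact permutation p = 0.0667, adjusted over 6 comparisons 0.171), by −1.22 at P16 vs E16 (p = 0.2, adjusted 0.3, exact) and by 0.01 at P16 vs P0 (p = 1, exact). With 2 E16 libraries, an exact p = 0.0667 is the smallest that either comparison with E16 allows, so neither could have passed, and the P0 and E16 shares did not overlap. Of 242 hairpins with both arms tested in the cochlea, 153 had arms whose log2 fold changes at P0 vs E16 were at least as far apart as those of miR-204. Across the 10 cochlear libraries, which share tissue and age structure, the log2 levels of the arms had a Pearson r of 0.52.

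**Figure D2:**
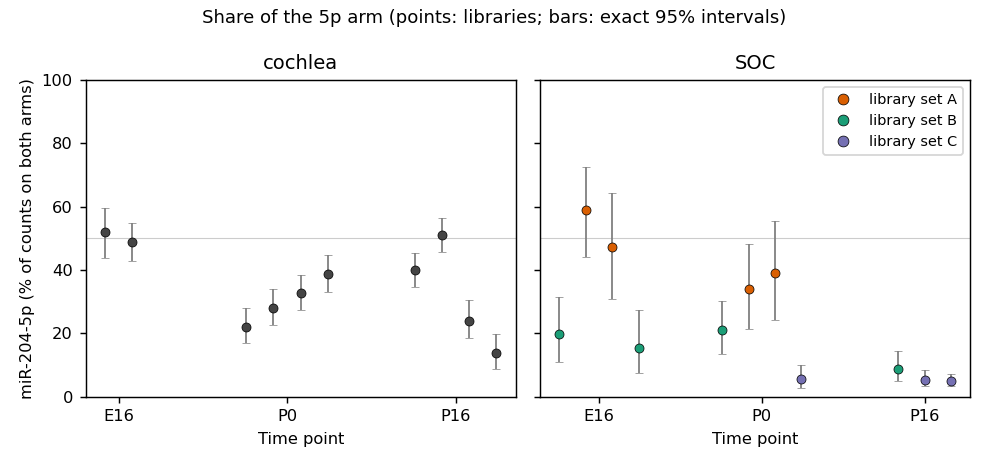
Share of miR-204-5p among the counts on both miR-204 arms, in percent, for every library of the cochlea (left) and the SOC (right), with exact 95% binomial intervals that cover counting error only. Cochlear shares go from 48.8% and 51.8% at E16 to 22.1% to 38.7% at P0, and SOC shares at P16 are all under 10%, with colors giving the SOC library sets A, B and C.

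In the SOC, both arms of miR-204 were low, and miR-204-3p rose at P16. Its TMM-normalized CPM were 3.11, 1.62, 2.00 and 4.26 at E16, 3.57, 3.24, 1.96 and 20.0 at P0, and 13.5, 35.1 and 48.0 at P16. All P16 libraries were above all E16 libraries, and P0 replicate 4 lay within the P16 range while the other P0 libraries lay within that of E16. The means were 2.75 ± 1.19 (SD, n = 4), 7.19 ± 8.57 (SD, n = 4) and 32.2 ± 17.4 (SD, n = 3). Counts were 20 to 53, 25 to 172 and 144 to 501, and the rank of miR-204-3p went from 415 to 536 at E16 to 205 to 311 at P16.

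**Figure D3:**
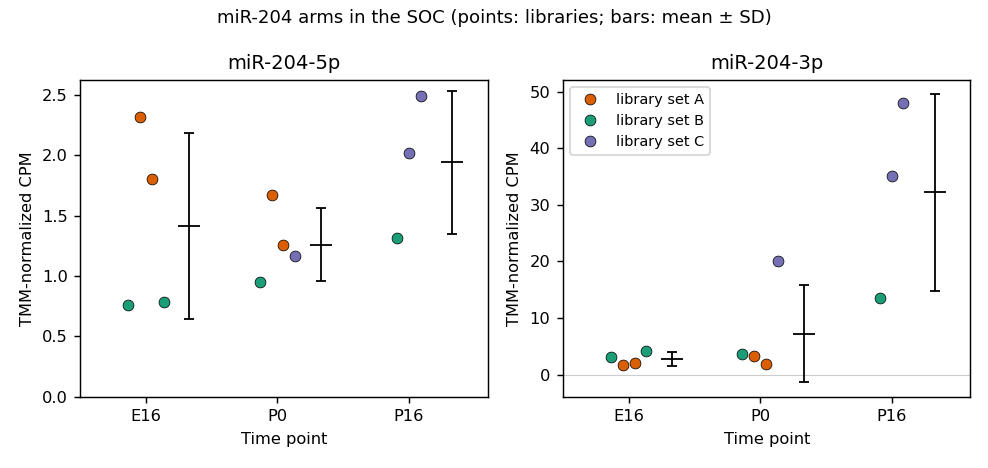
TMM-normalized CPM of miR-204-5p (left) and miR-204-3p (right) in the SOC at E16, P0 and P16. Points are libraries colored by library set, and bars are the mean ± SD. miR-204-3p is at 13.5 to 48.0 at P16 against 1.62 to 4.26 at E16, and its P0 library of set C (20.0) is apart from the other P0 libraries.

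miR-204-3p was DE at P16 vs E16 in the SOC, with a log2 fold change of 3.55 (SE 0.794, interval 1.82 to 5.27, FDR = 0.00454, edgeR). Of the 694 miRNAs tested there, 41.2% were DE in this comparison (21.2% higher at P16), and the groups did not overlap for 52.2%. In the exact two-sided permutation test p was 0.0286, the smallest for 4 against 3 libraries. Over the 21 such tests of the members no adjusted p was below 0.45. A smallest p passes this adjustment only if many of the other tests also reach theirs, so nothing is read from the adjusted values. At P0 vs E16 the log2 fold change was 1.37 (interval −0.19 to 2.94, FDR = 0.288, edgeR), and it was 0.15 without P0 replicate 4 (FDR = 0.905). At P16 vs P0 it was 2.17 (interval 0.53 to 3.82, FDR = 0.0633, edgeR) and not DE. The FDR of this step was 0.0202 with DESeq2, 0.0103 with the replicate block and 0.00512 with the set as covariate (both edgeR). It was 0.0611 with RLE factors and 0.0591 with library totals (both edgeR). Where it was under 0.05, the overlap of P0 replicate 4 (20.0) with P16 replicate 1 (13.5) kept the call from being made. That call was made without P0 replicate 4 (3.48, FDR = 0.00167) and without P16 replicate 1 (2.75, FDR = 0.0150). Of all miRNAs tested, 6.63% were DE at P0 vs E16 and 16.1% at P16 vs P0.

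The library sets moved with miR-204-3p in the SOC. Set C, which holds 2 of the 3 P16 libraries and 1 P0 library, had the 3 highest values. Within set B alone, the log2 ratio of P16 to E16 was 1.88 (1 library against 2), and that of P0 to E16 was −0.04. Within set C the log2 ratio of P16 to P0 was 1.05 (2 libraries against 1), and within set A that of P0 to E16 was 0.52. With the set as a covariate, the log2 fold change at P16 vs E16 was 1.74 (SE 0.355, FDR = 0.000938, edgeR), and miR-204-3p was still DE.

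miR-204-5p stayed near 1 to 2 CPM in the SOC. It was 0.762, 2.31, 1.8 and 0.782 CPM at E16, 0.950, 1.67, 1.25 and 1.16 at P0, and 1.32, 2.01 and 2.49 at P16, on 9 to 30 counts per library. The time points overlapped, and within E16 the libraries of set A (2.31 and 1.8) were above those of set B (0.762 and 0.782). Against E16 the log2 fold change was −0.17 at P0 (interval −1.25 to 0.92, FDR = 0.891) and 0.46 at P16 (interval −0.70 to 1.61, FDR = 0.499). At P16 vs P0 it was 0.63 (interval −0.53 to 1.79, FDR = 0.425, all edgeR), and each interval includes 0.

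The 5p share of miR-204 in the SOC was 19.7%, 58.8%, 47.4% and 15.5% at E16, 21%, 34.0%, 39.0% and 5.49% at P0, and 8.86%, 5.43% and 4.93% at P16. At each of E16 and P0 the libraries of set A had the highest shares. The share sets an arm with a near-identical listed neighbor (miR-204-5p) against one without (miR-204-3p), so how the counting treated such reads could change its level here, which was not tested. The log2 ratio of 5p to 3p changed by −2.88 at P16 vs E16 (p = 0.0571, adjusted 0.171, exact permutation), which did not pass. The smallest p possible here was 0.0286 (exact permutation), and it passes the adjustment only if many of the other tests also reach theirs. Every P16 share lay below every E16 share. Between P16 and E16, 20 of 206 hairpins with both arms tested had arms at least as far apart in log2 fold change as miR-204.

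The change of each arm was then set against the same change in the other organ, as an organ by time interaction over all 21 libraries. No difference of a miR-204 arm passed the test as fitted, though some for miR-204-3p passed under other settings. For miR-204-3p the SOC minus cochlea difference in log2 fold change came to −0.84 for P0 vs E16 (FDR = 0.552), 1.17 at P16 vs E16 (FDR = 0.428) and 2.01 at P16 vs P0 (interval 0.32 to 3.71, FDR = 0.123, all edgeR). For miR-204-5p it was −1.21, −1.12 and 0.09 (FDR = 0.327, 0.450 and 0.957, edgeR). With library totals the first and second were −0.44 and −0.18, and without cochlea P16 replicate 2 the second was −0.44 and the third 0.77. The median difference over the 545 miRNAs tested in both organs was 0.52, 0.38 and −0.11, and 11.9%, 16.9% and 6.42% of them passed. Without SOC P0 replicate 4, miR-204-3p passed at P0 vs E16 (−2.13, FDR = 0.0394) and at P16 vs P0 (3.29, FDR = 0.00148), and without SOC P16 replicate 1 it passed at P16 vs P0 (2.50, FDR = 0.0338, all edgeR). With the SOC library set as covariate it passed at P0 vs E16 (−1.83, FDR = 0.00261, edgeR) and turned to −0.73 at P16 vs E16, and with the replicate number as a block it passed at P16 vs P0 (3.06, FDR = 0.0261, edgeR).

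**Figure D4:**
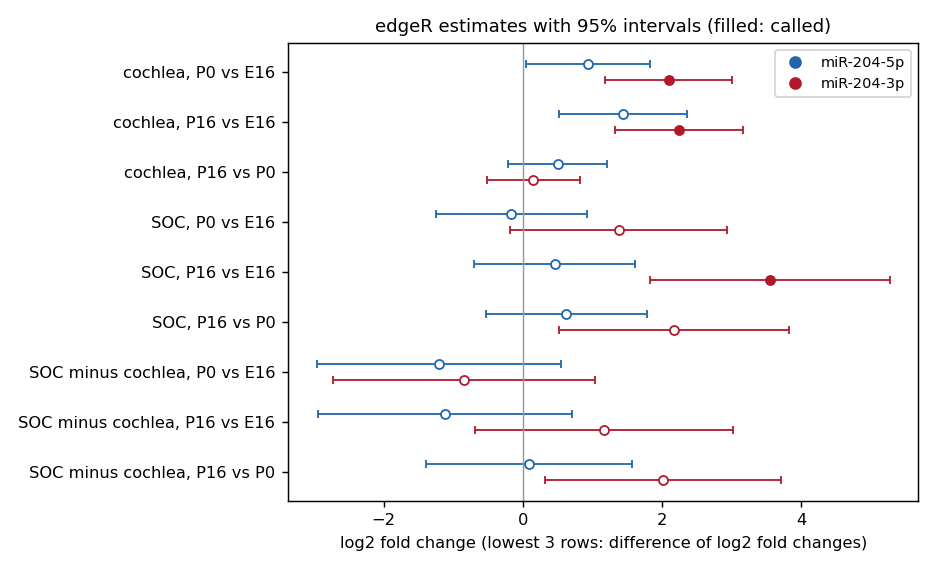
Log2 fold changes of miR-204-5p (blue) and miR-204-3p (red) from edgeR with 95% intervals, for each comparison within an organ and, in the lowest 3 lines, the SOC minus cochlea difference. Filled points passed the call, which are miR-204-3p at P0 vs E16 (2.10) and P16 vs E16 (2.25) in the cochlea and at P16 vs E16 (3.55) in the SOC.

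Levels between the organs are given as a description only, since kits differ. Over all libraries of an organ, miR-204-5p averaged 447 CPM of library totals in the cochlea against 1.5 CPM in the SOC, and miR-204-3p 865 and 12.9 CPM. These are log2 ratios of −8.13 and −6.06. After these values were seen, all miRNAs of at least 50 CPM in the cochlear mean were compared in the same way. The 255 with no other listed miRNA within 1 base of their sequence had a median log2 ratio of −2.59, and 20 of them lay at or below miR-204-5p. The 14 with such a neighbor, which include miR-204-5p through miR-211-5p, had a median of −7.87. Of these 14, 13 were lower in the SOC, as were 194 of the 255 without such a neighbor. Both classes were chosen by their level in the cochlea alone, which favors lower values in the SOC. let-7a-5p, which has 3 such neighbors, was at 8666 CPM in the cochlea and 1.62 CPM in the SOC. The part of near-identical sequences in the SOC level of miR-204-5p was not tested, and miR-204-3p has no such neighbor.

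**Figure D5:**
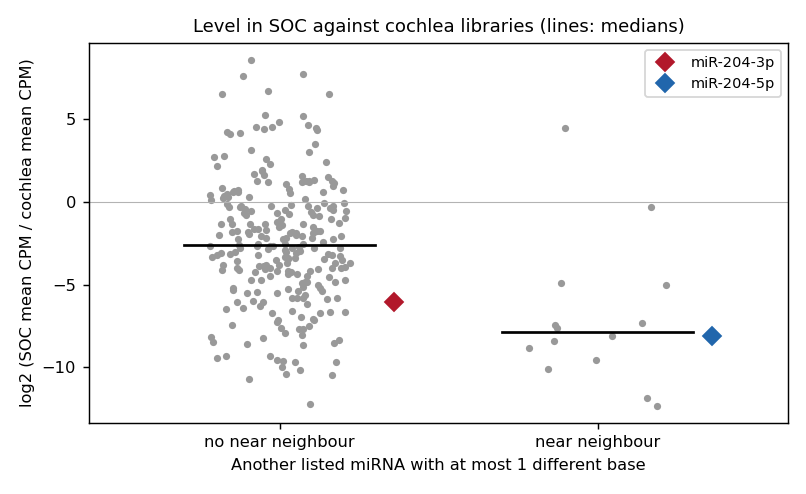
Log2 ratio of the mean CPM in the SOC to that in the cochlea (0.1 CPM added) for miRNAs with a cochlear mean of at least 50 CPM, split by whether another listed miRNA differs by at most 1 base. Points are miRNAs and lines are medians (−2.59 without and −7.87 with a near neighbor), and diamonds mark miR-204-3p (−6.06) and miR-204-5p (−8.13).

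miR-211 was at the limit of detection. In the cochlea miR-211-5p had 1 and 2 counts at E16, 4, 0, 1 and 0 at P0, and 0, 1, 0 and 0 at P16. That is 9 counts in 2154921, or 4.18 CPM (exact 95% binomial interval 1.91 to 7.93), against 947 counts of miR-204-5p in the same libraries. miR-211-3p had 1 and 1 counts at E16, 0, 1, 0 and 0 at P0 and 0, 0, 0 and 1 at P16, or 1.86 CPM (exact 95% binomial interval 0.506 to 4.75). In the SOC, miR-211-5p had 0 counts in all 11 libraries, and 3 counts, taken as the limit that a count of 0 allows, are 0.0221 CPM of their 135452556 counts. miR-211-3p had 3 counts there, all at E16. miR-211-5p also has a listed neighbor 1 base away, the class with the lower median ratio of SOC to cochlea. Its 0 in the SOC is thus a limit on assigned reads, and whether it limits expression was not tested. These intervals and limits cover counting error only, since PCR copies cannot be told from separate molecules.

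Both miR-211 arms passed the filter on low counts in the cochlea, miR-211-5p through E16 and P0 and miR-211-3p through E16 alone, and neither passed in the SOC. In the cochlea no comparison of a miR-211 arm was DE (FDR between 0.474 and 0.974, edgeR). No fold is given, because only 1 library, P0 replicate 1 of miR-211-5p, had more than 3 counts. The log2 ratio of miR-211-5p to miR-204-5p had no p below 0.333 in the cochlea (exact permutation, adjusted 0.867 over 3 comparisons), but with miR-211-5p at 0 in 5 of 10 libraries it rests on the 0.5 counts added and nothing is read from it. In the SOC, where every library was at 0, the ratio was not tested. At this depth a change of miR-211 was not detectable, and of the members only the miR-204 arms could be followed.

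The miRNAs whose cochlear pattern was most like miR-204-5p, out of 241 averaging 100 CPM or more over 10 libraries, were miR-3968 (Pearson r = 0.84), miR-145a-5p (0.84), miR-365-3p (0.81), miR-3069-3p (0.81) and miR-125a-5p (0.77). For miR-204-3p, a list added after its values were seen, they were miR-193b-5p (0.98), let-7d-3p (0.97), miR-466i-5p (0.97), miR-466f-3p (0.96) and miR-1187 (0.95). miR-193b-5p went from 24.5 to 33 CPM at E16 to 491 to 1074 at P16. In the SOC, where 175 miRNAs over 11 libraries were compared, miR-204-3p was nearest to miR-497a-5p (0.98), let-7d-5p (0.97), miR-138-5p (0.96), miR-666-3p (0.95) and miR-744-5p (0.95). Libraries of one time point share age and set, so these r values describe likeness only.

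Other miRNAs known from pigment cells were measured in both organs, 6 of 6 tested in each. In the cochlea 1 rose and 1 fell at P0 vs E16 and again at P16 vs E16, and the other 4 were not DE, beside 24.4% and 29.6% DE of all miRNAs tested. miR-184-3p, abundant in retinal pigment epithelium, rose from 20.2 ± 13.2 CPM at E16 (SD, n = 2) to 80.7 ± 18.1 at P0 and 248 ± 190 at P16 (SD, n = 4 each), with log2 fold changes of 1.92 (FDR = 0.0143, edgeR) and 3.54 (FDR = 1.07e-06, edgeR). miR-148a-3p, which targets Mitf, fell from 281 ± 35.1 to 29.2 ± 7.6 CPM at P0 (log2 fold change −3.25, FDR = 4.00e-07, edgeR) and was 110 ± 47.8 at P16, above P0 (1.92, FDR = 0.00436, edgeR) and below E16 (−1.33, FDR = 0.0400, edgeR). The other Mitf-targeting miRNAs, miR-137-3p and miR-182-5p, and the Kit-targeting miR-221-3p and miR-222-3p were not DE in the cochlea. The median log2 fold change of the list was −0.66 at P0 vs E16 and −0.53 at P16 vs E16, beside 0 and −0.09 for all miRNAs tested. In the SOC none of the list rose. Against E16, 1 fell at P0 and 3 at P16, and 2 fell at P16 vs P0, led by miR-182-5p at P16 vs E16 (log2 fold change −6.03, FDR = 0.000248, edgeR). miR-182-5p is among those that fell in each of these comparisons, and it is also counted in the hair cell list.

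Markers of other cell types moved in the same comparisons, and their part in the change of miR-204-3p was not tested. Summed levels are CPM of library totals. The counts called stand beside 24.4% of all miRNAs DE at P0 vs E16, 29.6% at P16 vs E16 and 10.5% at P16 vs P0. In the cochlea the summed level of 7 epithelial miRNAs (the miR-200 family, miR-203-3p and miR-205-5p) went from 19611 to 29053 CPM at E16 to 4848 to 8075 at P0 and 1618 to 6930 at P16. In each comparison with E16, 3 of 7 fell. Of these, miR-429-3p and miR-203-3p fell in both, miR-200a-3p at P0 only and miR-200c-3p at P16 only. The summed level of 3 hair cell miRNAs went from 69631 to 71872 CPM to 31182 to 39320 at P0 and 10805 to 40102 at P16, with none of the 3 DE. All 4 neuronal miRNAs fell at P0 vs E16 and at P16 vs E16, from summed levels of 4897 to 5743 CPM at E16 to 550 to 1389 at P0 and 685 to 1519 at P16. All 3 blood miRNAs tested fell at P0 vs E16, from 1949 to 2108 CPM to 203.6 to 265, and 2 of them fell at P16 vs E16, where the list summed to 449 to 737 CPM. The red cell miRNAs miR-451a and miR-144-3p were at 0 in every cochlear library of P0 and P16. Of the 4 mesenchymal miRNAs listed, miR-145a-5p rose in both comparisons with E16, miR-199a-5p fell in both, miR-143-3p fell at P0 only and miR-214-3p at P16 only, with a summed level of 61238 to 67699 CPM at E16, 45221 to 76880 at P0 and 15764 to 20996 at P16. Muscle miR-1a-3p fell at P0 vs E16 and rose at P16 vs E16, and miR-206-3p was not DE, with a summed level of 631 to 706, 187 to 473 and 711 to 4487 CPM. At P16 vs P0, neuronal miR-124-3p (log2 fold change 1.94, FDR = 1.32e-05, edgeR) and blood miR-223-3p (1.34, FDR = 0.00336, edgeR) rose. The other neuronal and blood miRNAs tested were not DE in that step. There miR-1a-3p also rose, whereas epithelial miR-200c-3p and mesenchymal miR-214-3p fell. The 2 oligodendrocyte miRNAs tested, miR-338-3p and miR-338-5p, are arms of the same hairpin, and both rose at P16. miR-219a-2-3p, also listed, did not pass the filter in the cochlea. The list summed to 55.9 to 87.0 CPM at E16 and 464 to 1415 at P16. Ciliated epithelium miRNAs, known also from the choroid plexus, summed to 185 to 197 CPM at E16, 116 to 256 at P0 and 83.2 to 171 at P16 in the cochlea, with 2 of the 5 listed tested and none DE, and miR-34c-5p was at 0 in every cochlear library.

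In the SOC the same lists moved with time, and their part in the rise of miR-204-3p was not tested either. Of all miRNAs tested in this organ, 6.63% were DE at P0 vs E16 and 41.2% at P16 vs E16, and counts of 1 or 2 of 4 at P16 are near that share. Ciliated epithelium miRNAs summed to 418 to 1339 CPM at E16, 202 to 1338 at P0 and 39.5 to 194 at P16, where miR-204-3p was highest, with 1 of the 3 tested falling at P16 vs E16. The oligodendrocyte list went from 349 to 562 CPM at E16 to 4086 to 7553 at P16, with 3 of 3 rising (miR-219a-2-3p and both arms of miR-338). The epithelial list went from 930 to 1855 CPM at E16 to 54.2 to 201.4 at P0 and 45.6 to 153 at P16, with 3 of the 4 tested falling in both comparisons with E16. The hair cell list (miR-183-5p, miR-96-5p and miR-182-5p) went from 97018 to 147946 CPM at E16 to 592 to 2901 at P16, where 3 of 3 fell. Hair cells lie in the inner ear, so the name of this list does not apply to the SOC. The paper also reports a fall of miR-96 and miR-182 as the SOC matures. The neuronal list was at 42715 to 100509 CPM at E16 and 28164 to 35784 at P16, with 1 of 4 rising and 1 falling. The mesenchymal list was at 13489 to 22677 CPM at E16 and 17485 to 26625 at P16, with 2 of 4 falling, the blood list at 60.1 to 75.4 and 84.0 to 209 CPM, with 1 of 4 rising and 1 falling, and the muscle list at 96.9 to 276 and 10.2 to 20.0 CPM, with 1 of the 2 tested falling.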

How the data were processed

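Small RNA was sequenced in 21 libraries. The authors deposited 1 table of raw counts of reads per mature miRNA, with no normalization; every column was matched to a label by organ, time point and replicate number. The study's methods state Bowtie and a MirGeneDB reference, the submitters' processing notes name Bowtie2 2.2.5, mm10 and DESeq2, and the table has miRBase names. The counting rule is not given in the sources used here.

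Counts were tested per organ with edgeR 4.0.16 in R 4.3.3 (TMM factors, quasi-likelihood F test, Benjamini-Hochberg FDR over all miRNAs tested), on miRNAs above 1 CPM in 2 or more libraries of some time point (896 in the cochlea, 694 in the SOC). DE calls needed FDR under 0.05, a fold above 1.5 and groups without overlap in TMM CPM. Organ differences were the organ by time interaction over miRNAs tested in both organs. Single members with counts in an organ were also tested with exact two-sided permutation tests on log2 CPM of library totals (0.5 counts added), and shares have exact Clopper-Pearson intervals. Python 3.11.15 was used with scipy 1.17.1. The fits were tested on simulated counts. Alternatives were DESeq2 1.42.0, RLE factors, library totals, other filters, a replicate block, the SOC library set as covariate, 1 fit of all 21 libraries, no overlap criterion, and leaving out each library.

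Named miRNAs were all members, the lists of pigment cell and cell type miRNAs, and the 5 most like miR-204-5p per organ by Pearson r. A member with a mean under 10 CPM in an organ got no such list. The members, the lists and the SOC library sets were chosen with earlier results of these data known. Totals ranged from 124400 to 18053698 counts. The study describes its samples as biological repeats, each pooled from several animals, so p-values measure the spread between such pools. Replicate numbers recur across time points. Deviations of same-numbered libraries from their group means correlated above 0.1 in every pair only for SOC P0 vs E16 (4 of 4 pairs, r 0.25 to 0.49). Set A libraries of different number correlated as much there. P0 replicate 2 had r = 0.41 with E16 replicate 3, and P0 replicate 3 had r = 0.25 with E16 replicate 2. The values therefore do not settle whether the numbers pair the libraries.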

Additional observations from a re-analysis of the deposited data

Results flagged for a closer look

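In groups of 4 libraries, the gap of the highest or lowest library to its neighbor was set against the range of the group (Dixon's test, limit 0.829). Chance marks about 1 in 20 groups, and 3 of 12 were marked, all for the highest TMM-normalized CPM of miR-204-3p. In the cochlea these were P0 replicate 3 at 1271 CPM, against 920 to 947 in the other 3, and P16 replicate 2 at 1338 CPM, against 1049 to 1078. By library totals P16 replicate 2 was the lowest of its group, at 867 CPM, and its TMM factor was 0.648. In the SOC it was P0 replicate 4 at 20.0 CPM, against 1.96 to 3.57, which is the only P0 library of set C.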

How the results depend on the processing

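The rise of miR-204-3p at P16 vs E16 was called under every alternative fitted in both organs. At P0 vs E16 in the cochlea it was called under all but 1, all 21 libraries in one fit (2.10, FDR = 0.0891, edgeR). Without the overlap criterion, miR-204-5p was called at P16 vs E16 in the cochlea (1.44, FDR = 0.00892, edgeR). Within SOC library sets, with no test, miR-204-3p had log2 ratios of 0.52 (set A) and −0.043 (set B) for P0 vs E16, 1.88 (set B) for P16 vs E16 and 1.05 (set C) for P16 vs P0, and miR-204-5p 0.30 (set B) for P0 vs E16. With library totals only, the SOC change of miR-204-5p at P0 vs E16 was 0.0072. The organ difference of miR-204-3p was −1.83 with the set as covariate (FDR = 0.00261, edgeR) and 0.15 with at least 10 counts in every library at P0 vs E16, and −0.73 with the set as covariate at P16 vs E16. That filter left no value for miR-204-5p in the SOC or between organs. With 1 count added, the log2 ratio of miR-211-5p to miR-204-5p at P0 vs E16 in the cochlea was 0.019. The cause of these changes was not tested.

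With the replicate number as a block, the SOC change of miR-204-3p was 0.85 at P0 and 4.04 at P16 against E16 and 3.20 at P16 vs P0, and its organ difference at P16 vs P0 passed (3.06, FDR = 0.0261, edgeR). No other call on a miR-204 arm changed with the block. Same-numbered libraries are known to share only a number.

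Leaving out 1 library at a time gave 0.84 to 1.67 for miR-204-5p at P16 vs E16 and −0.070 to 0.75 at P16 vs P0 in the cochlea, and −0.42 to 0.17 at P0 vs E16 in the SOC. For miR-204-3p in the SOC it gave 1.91 to 3.48 at P16 vs P0. Organ differences of miR-204-3p ran from −2.13 to −0.54 at P0 vs E16 and from 1.70 to 3.29 at P16 vs P0, and that of miR-204-5p from −0.23 to 0.77 at P16 vs P0 and −1.44 to −0.44 at P16 vs E16. The 5p to 3p log2 ratio in the cochlea ran from −0.41 to 0.49 at P16 vs P0. The ratio of miR-211-5p to miR-204-5p ran from −1.16 to 0.27 at P0 vs E16 and −1.24 to 0.19 at P16 vs P0 in the cochlea. In the SOC that ratio has no value, since miR-211-5p was at 0 in every library.

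Counts of DE miRNAs in the cochlea (P0 against E16, P16 against E16, P16 against P0) were 219, 265 and 94, against 93, 104 and 54 with at least 10 counts in every library, and 115 and 61 at P0 vs E16 and P16 vs P0 with all 21 libraries in one fit. In the SOC, 46 at P0 vs E16 became 84 with DESeq2 and 96 with the set as covariate, and 286 at P16 vs E16 became 189 with the filter at 10 counts. Organ differences numbered 65, 92 and 35, against 120, 138 and 78 with DESeq2, 169, 127 and 93 with the set as covariate, 32, 38 and 20 with the filter at 10 counts, 143 at P0 vs E16 with library totals, 13 at P16 vs P0 with no filter and 70 at P16 vs P0 with the block. Cochlear depth leaves miR-204-5p on 23 to 179 counts per library and miR-211 on at most 4.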
